A study of Mus musculus with 6 samples.

Results

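The colony-stimulating factor genes described here are 9 genes of the 45777 in the count table, taken by symbol. They comprise 6 receptor chains (Csf3r, Csf2ra, Csf2rb, Csf2rb2, Csf1r and Il3ra) and 3 ligands (Csf1, Csf2 and Csf3). RNA was sequenced from neutrophils of wild-type C57BL/6 mouse bone marrow, purified on a Percoll density gradient and kept for 24 h with the DMSO vehicle or with PGE2 (prostaglandin E2, a lipid that raises cAMP through some of its receptors) at 10 µM. Each group held 3 libraries, stated to be biological replicates, and the question is how PGE2 changed the expression of these genes. The labels do not say whether the culture medium held an added growth factor.

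Colony-stimulating factors are secreted proteins that make bone marrow progenitors grow and mature, and that keep mature myeloid cells alive. Csf3 encodes G-CSF, the main growth factor of neutrophils, and Csf3r its receptor, which pairs with itself. Csf2 encodes GM-CSF, which is bound by the alpha chain Csf2ra together with the common beta chain Csf2rb. The same beta chain serves the receptors for IL-3, whose alpha chain is Il3ra, and IL-5, while Csf2rb2 is a second beta chain that mice have and that serves IL-3 alone. Csf1 encodes M-CSF, the growth factor of macrophages, and Csf1r its receptor, a tyrosine kinase. Apart from Csf1r, these receptors have no kinase of their own and signal through JAK kinases and STAT factors.

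With PGE2, 3 of the 7 genes tested fell, all of them receptor genes, beside 14.3% of all tested genes. Csf3r fell by 47.7%, Csf1r fell by 32.8% and Csf2ra fell by 29.8%. The Csf1r call was lost when any of 4 of the 6 libraries was left out. The common beta chain gene Csf2rb differed by less than the spread between libraries. The ratio of Csf2ra to the RNA of both beta chain genes was lower in every PGE2 library than in any vehicle library. Its exact permutation p was 0.1, the smallest possible, and 0.12 after adjustment. Csf2rb2 was higher by 34.8%, which did not pass in the unpaired test of counts and passed when same-numbered libraries were paired. Of the ligand genes, Csf1 was present in every library, Csf3 was read in 2 PGE2 libraries and in no vehicle library, and Csf2 had 3 reads in all.

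Promoter sequences were at hand for 6 of the 9 genes (RefSeq, GRCm38.p6). Shown are the receptor genes that fell in every analysis, Csf3r and Csf2ra, and Csf2rb2, whose mean was higher with PGE2. The Csf2rb2 libraries of the groups overlapped, and its edgeR adjusted p without pairing was 0.0827. Each sequence covers the 250 bases before the start site that the RefSeq promoter table uses, 5′ to 3′ on the gene's strand. Capitals mark each match, on either strand, to GAGGAA (PU.1), TTNNGNAA (C/EBP), TTCNNNGAA (STAT), TGACG (a CRE half-site), TGACGTCA (the full CRE, the element bound by CREB) or TGANTCA (AP-1). The windows are chr4:126024409-126024658 on the plus strand for Csf3r, chr19:61228419-61228668 on the minus strand for Csf2ra and chr15:78305722-78305971 on the minus strand for Csf2rb2. The start sites used for Csf3r and Csf2ra lie inside the gene spans given with their values, so the Csf3r window is wholly, and the Csf2ra window partly, within the annotated gene.
Csf3r: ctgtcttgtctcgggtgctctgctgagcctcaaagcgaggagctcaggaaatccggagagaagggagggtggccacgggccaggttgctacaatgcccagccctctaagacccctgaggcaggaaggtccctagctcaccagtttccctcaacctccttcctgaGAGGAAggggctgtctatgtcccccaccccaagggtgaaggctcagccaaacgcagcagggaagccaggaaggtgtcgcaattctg
Csf2ra: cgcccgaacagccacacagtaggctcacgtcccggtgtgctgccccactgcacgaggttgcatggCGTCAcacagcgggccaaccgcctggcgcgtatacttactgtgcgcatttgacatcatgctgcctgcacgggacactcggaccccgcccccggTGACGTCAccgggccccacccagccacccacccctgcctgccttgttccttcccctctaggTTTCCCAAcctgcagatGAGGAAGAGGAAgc
Csf2rb2: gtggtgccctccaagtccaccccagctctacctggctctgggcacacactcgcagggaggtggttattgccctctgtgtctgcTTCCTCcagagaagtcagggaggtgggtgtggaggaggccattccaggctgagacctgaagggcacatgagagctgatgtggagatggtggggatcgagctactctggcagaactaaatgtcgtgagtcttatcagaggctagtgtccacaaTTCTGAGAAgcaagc

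The Csf3r window held 1 match, to the PU.1 letters, 86 bases before the start. The Csf2ra window held 2 adjoining PU.1 matches that begin 14 and 8 bases before the start, 1 C/EBP match 31 bases before it, and the full CRE 92 bases before it, which the half-site letters match on each strand. A further CRE half-site lay 185 bases before the Csf2ra start. The Csf2rb2 window held 1 PU.1 match, 167 bases before the start, and 1 STAT match 15 bases before it. Among 32851 promoter windows of this length, 23.3% held the PU.1 letters, 36.8% the C/EBP letters, 7.02% the STAT letters, 17.8% the CRE half-site, 1.55% the full CRE and 6.75% the AP-1 letters. The full CRE was added to the motifs after the Csf2ra sequence had been read. A match of letters is a description of the window and no evidence that a factor binds there.

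Levels were compared between genes in TPM, the authors' a measure of transcript share that divides out transcript length. In vehicle, Csf3r stood at 2541.7 ± 125.5 TPM (mean ± SD, n = 3), rank 27 of all genes, and Csf2ra at 413 ± 22.3 TPM. Csf1r followed at 128.5 ± 12.8 TPM, Csf2rb at 99.8 ± 5.99 TPM, Csf1 at 47.4 ± 20.1 TPM, Csf2rb2 at 13.5 ± 2.67 TPM and Il3ra at 8.82 ± 0.617 TPM. The libraries of neighbours in this order did not overlap. With PGE2, Csf3r stood at 1257.9 ± 150.1 TPM, rank 76, and Csf2ra at 265.0 ± 16.4 TPM. Csf2rb (93.2 ± 9.34 TPM) and Csf1r (80.3 ± 18.2 TPM) changed places, but their PGE2 libraries overlapped. Csf1 (34.6 ± 4.18 TPM), Csf2rb2 (16.4 ± 1.79 TPM) and Il3ra (9.78 ± 0.790 TPM) kept their order with PGE2.

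**Figure D1:**
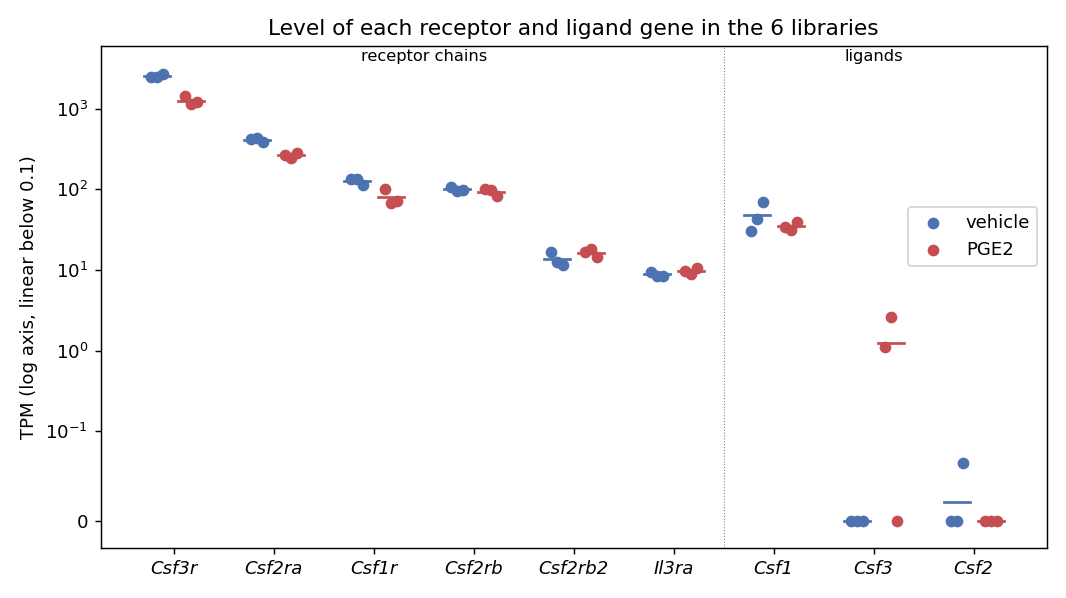
TPM of the 9 genes on a log axis that is linear below 0.1, with 1 point per library, blue for vehicle and red for PGE2, and a bar at each group's mean. Csf3r lies above all other genes in both groups, and its 3 PGE2 libraries (1135 to 1425 TPM) lie below its 3 vehicle libraries (2449 to 2685 TPM).

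The test was edgeR's quasi-likelihood test over the 15947 genes that reached 10 counts in 3 or more libraries, with p-values adjusted over all of them by the Benjamini-Hochberg method and a threshold of 0.05. Of the 9 genes, 7 passed this filter and 2 (Csf2 and Csf3) did not. Of the 7, 3 were lower and 0 higher with PGE2. Over all tested genes 14.3% were called lower and 10.1% higher, 24.4% in all. At an unadjusted p under the same threshold 1 of the 7 was higher, Csf2rb2, and DESeq2 called 0 higher and 3 lower. The median log2 fold change of the 7 was -0.36, against 0.04 over all tested genes. Fits with the replicate number as a block, which treat same-numbered libraries as pairs, called 3 lower and 1 higher, where 18.9% and 16.6% of all genes were called, 35.5% in all. Levels that follow are in CPM (counts scaled to a common library size by TMM) and each is given for replicates 1, 2 and 3 in that order. An edgeR p-value here weighs the difference between the groups against the spread between these libraries. In bulk RNA, fewer cells of a type and less RNA per cell cannot be told apart.

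Csf3r, the G-CSF receptor gene (chromosome 4, 126023441 to 126044975, mm10), had 4702, 5222 and 5534 CPM in vehicle and 2901, 2729 and 2460 CPM in PGE2. The lowest vehicle library was thus above the highest PGE2 library. Its log2 fold change was -0.93 ± 0.11 (SE; edgeR adjusted p = 0.000843). Csf3r alone took 0.467, 0.498 and 0.532% of all counts in vehicle and 0.303, 0.266 and 0.266% in PGE2. It was called lower in each of the 16 analyses run, with log2 fold changes from -1.02 to -0.84. The noncoding gene Gm32908 overlaps the start of Csf3r on the other strand. Its counts equalled 0.841 to 1.02% of those of Csf3r in vehicle and 1.45 to 1.52% in PGE2. The sources used here do not state whether reads were counted by strand.

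Csf2ra, the GM-CSF receptor alpha chain gene (chromosome 19, 61217191 to 61228461), had 520.0, 577 and 539.9 CPM in vehicle and 362, 403 and 384 CPM in PGE2. The groups did not overlap, and within each group the highest library was 1.11 times the lowest. Its log2 fold change was -0.51 ± 0.08 (edgeR adjusted p = 0.00357). It was called lower in each of the 16 analyses, with values from -0.64 to -0.42. No other gene of the deposited tables overlaps Csf2ra.

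Csf1r, the M-CSF receptor gene (chromosome 18, 61105572 to 61131139), had 279.7, 318 and 256 CPM in vehicle and 231, 182 and 161 CPM in PGE2. All PGE2 libraries lay below all vehicle libraries, but the closest pair differed by less than the range within either group. Its log2 fold change was -0.57 ± 0.14 (edgeR adjusted p = 0.0218), and -0.58 ± 0.10 with the replicate block (edgeR adjusted p = 0.0035). Leaving out PGE2 replicate 2 gave an adjusted p of 0.0733 and leaving out PGE2 replicate 3 one of 0.0694. Leaving out the first vehicle library gave 0.0537 and the second 0.0807, and the adjusted p lay between 0.00105 and 0.0807 over all analyses. The call thus needed each of those 4 libraries in the fit without pairing. Besides Csf1r, monocytes and macrophages express the 13 markers of a list that left Csf1r out. Their summed level ran from 1004 to 1417 CPM in vehicle and from 733 to 1119 CPM in PGE2. The groups overlapped, and within each same-numbered pair the PGE2 library was the lower, at 1417 and 1119, 1190 and 888, and 1004 and 733 CPM. In the edgeR test 0 of these markers rose (1 at an unadjusted p, and 0 by DESeq2) and 1 fell, Adgre1. Adgre1 encodes F4/80 and is also expressed by eosinophils. At an unadjusted p 2 of the markers fell, as by DESeq2 and without PGE2 replicate 1. The most abundant markers of the list were Ly6c2 (481 to 766 CPM in vehicle, 304 to 537 CPM in PGE2) and Ccr2 (117 to 178 and 112 to 135 CPM), and neither passed without pairing. With the replicate block Ly6c2 fell by 0.62 on the log2 scale (edgeR adjusted p = 0.000509), and of the 13 markers 2 fell and 1 rose. Over all tested genes 14.3% were lower and 10.1% higher, or 18.9% and 16.6% with the block. The median log2 fold change of the 13 markers was 0.02, against 0.04 over all tested genes. The macrophage genes Mertk, C1qa, C1qb and Marco lay between 0 and 1.9 CPM in every library. The part of monocytes in the Csf1r difference was not tested.

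Csf2rb, the common beta chain gene (chromosome 15, 78325800 to 78351001), had 270.2, 276 and 268 CPM in vehicle and 279, 318 and 229 CPM in PGE2. The PGE2 libraries lay on either side of the vehicle libraries, which were within 1.03 times of each other. Its log2 fold change of 0.02 ± 0.12 did not pass (edgeR adjusted p = 0.924), and its 95% interval ran from -0.25 to 0.29, or from 16% lower to 22.6% higher. The sign of this value was negative on TPM (-0.10) and without PGE2 replicate 2 (-0.09).

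Csf2rb2, the beta chain gene of the mouse IL-3 receptor (chromosome 15, 78282507 to 78305721), had 41.1, 34.8 and 31.6 CPM in vehicle and 46.6, 58.5 and 39.9 CPM in PGE2. The third PGE2 library lay below the first vehicle library, while each PGE2 library lay above the vehicle library of the same number. Without the block the log2 fold change of 0.43 ± 0.16 did not pass (edgeR adjusted p = 0.0827; 0.0206 to 0.272 over all analyses). With the replicate block Csf2rb2 rose by 0.42 ± 0.11 (edgeR adjusted p = 0.0206). It also passed without PGE2 replicate 3 (0.56, adjusted p = 0.0379) and with libraries scaled by their totals alone (0.51, adjusted p = 0.0351), and on log2(TPM + 1) it was at 0.27, with a limma adjusted p of 0.272, or 0.106 with the replicate block. Csf2rb2 lies 20078 bases from Csf2rb, on the opposite strand and with no gene between them in the deposited tables. Their coding transcripts are close relatives: of the 100-base stretches of the longest Csf2rb2 transcript in GENCODE M21, 7.2% occur unchanged in that of Csf2rb, and of the 50-base stretches 19%. The sources used here do not state how reads from these stretches were divided, so the values of both genes are uncertain to that extent.

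Il3ra, the alpha chain gene of the IL-3 receptor (chromosome 14, 14345912 to 14355493), had 10.1, 9.7 and 9.03 CPM in vehicle and 10.6, 11.8 and 11.2 CPM in PGE2. In CPM the lowest PGE2 library was above the highest vehicle library, though in TPM the groups overlapped (8.45 to 9.53 against 9 to 10.6 TPM). The log2 fold change of 0.22 ± 0.12 did not pass (edgeR adjusted p = 0.225; 95% interval -0.05 to 0.49), and Il3ra passed in none of the 16 analyses. Among all tested genes, 20.5% had every PGE2 library above every vehicle library and 21.8% had every one below, 42.3% in all. Of the 7 tested genes 1, Il3ra, was of the first kind and 3 (Csf3r, Csf2ra and Csf1r) of the second. Basophils and mast cells, which carry IL-3 receptors, were looked for through 8 markers. Their summed level was 179, 65.5 and 88.1 CPM in vehicle and 134.5, 72.9 and 76.3 CPM in PGE2, and 0 of the 6 markers tested passed in either direction by edgeR, at an unadjusted p or by DESeq2. The most abundant of them was Prss34, at 29.0 to 82.7 CPM in vehicle and 31.0 to 58.6 CPM in PGE2, with the protease gene Mcpt8 next (10.8 to 36.3 and 15.1 to 26 CPM). Tpsb2 was at 0 in every library.

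**Figure D2:**
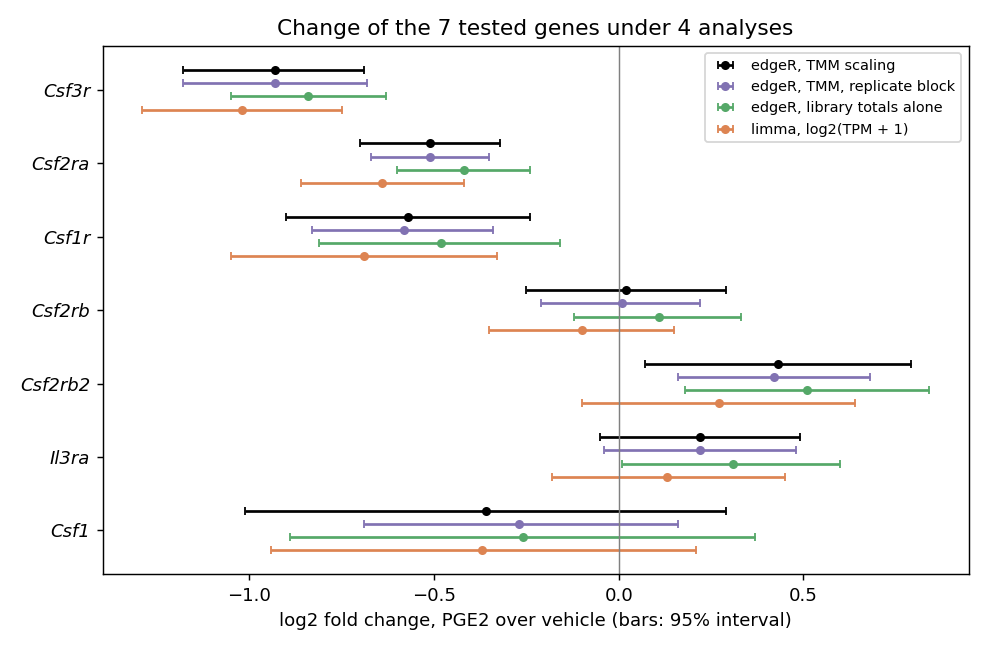
Log2 fold change of PGE2 over vehicle, with its 95% interval, for the 7 tested genes under edgeR with TMM scaling (black), edgeR with the replicate block (purple), edgeR with library totals alone (green) and limma on log2(TPM + 1) (orange). Intervals for Csf3r, Csf2ra and Csf1r lie below 0 in all 4 analyses, those for Csf2rb and Csf1 span 0, and that for Csf2rb2 spans 0 on TPM only.

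Ratios between these genes within a library do not depend on how libraries are scaled to each other. Csf2rb2 made up 13.2, 11.2 and 10.5% of the counts of Csf2rb and Csf2rb2 together in vehicle and 14.3, 15.5 and 14.8% in PGE2. The 95% Wilson intervals, which cover counting error only, ran from 10.1 to 13.8% over the vehicle libraries and from 13.8 to 16% over the PGE2 libraries. The group means were 11.6 ± 1.38% and 14.9 ± 0.622% (SD, n = 3), and the groups did not overlap. An exact two-sided permutation test gave p = 0.1, the smallest that 3 libraries against 3 allow, and 0.12 after adjustment over the 6 ratios computed. On TPM the share was 11.9 ± 1.43% in vehicle and 15 ± 0.623% in PGE2.

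The GM-CSF receptor needs an alpha and a beta chain, Csf2ra and Csf2rb. Csf2rb2, which serves IL-3 alone, was kept in the beta chain sum, and Csf2ra over Csf2rb alone was not computed. The TPM of Csf2ra over the summed TPM of Csf2rb and Csf2rb2 was 3.44, 3.95 and 3.58 in vehicle and 2.29, 2.15 and 2.9 in PGE2. Every PGE2 library lay below every vehicle library (exact permutation p = 0.1, adjusted 0.12). The ratio of Il3ra to the same sum was 0.0773, 0.0782 and 0.078 in vehicle and 0.0838, 0.0781 and 0.109 in PGE2, and those groups overlapped (exact permutation p = 0.2). The Csf3r level was also lower relative to the other receptor genes that fell. Its TPM over that of Csf2ra went from 6.17 ± 0.656 to 4.75 ± 0.533, and over that of Csf1r from 20 ± 3.13 to 15.9 ± 1.59. In both of these ratios all PGE2 libraries were below all vehicle libraries, and each gave the smallest exact permutation p of 0.1 (adjusted 0.12).

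**Figure D3:**
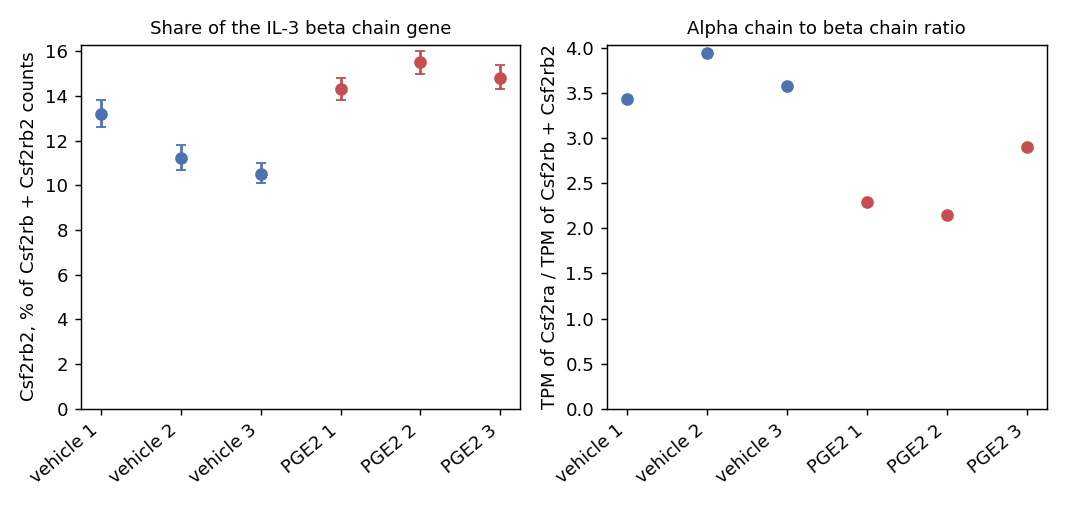
Within-library ratios, 1 point per library, blue for vehicle and red for PGE2. On the left, Csf2rb2 as a percentage of the counts of both beta chain genes, with 95% Wilson intervals, is 10.5 to 13.2% in vehicle and 14.3 to 15.5% in PGE2; on the right, the TPM of Csf2ra over that of both beta chain genes is 3.44 to 3.95 in vehicle and 2.15 to 2.9 in PGE2.

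Among the ligand genes, Csf1, which encodes M-CSF (chromosome 3, 107741048 to 107760469), had 66.1, 105 and 167 CPM in vehicle and 82.7, 86.4 and 94.3 CPM in PGE2. The PGE2 libraries all lay within the range of the vehicle libraries, whose highest value was 2.52 times the lowest. The log2 fold change of -0.36 ± 0.28 did not pass (edgeR adjusted p = 0.402), with a 95% interval from -1.01 to 0.29. Without vehicle replicate 3 it was 0.04, so the negative sign rested on that library. Csf1 shares its locus with the noncoding gene Gm40121 on the other strand, which averaged 35.2 counts per library.

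Csf3, which encodes G-CSF (chromosome 11, 98700183 to 98703631), had 62, 135 and 0 counts in PGE2 replicates 1, 2 and 3 and 0 counts in all 3 vehicle libraries. These are 1.23 and 2.58 CPM in the first PGE2 libraries, and a count of 0 allows up to 0.0494 CPM in the third PGE2 library and up to 0.0655, 0.0748 and 0.058 CPM in the vehicle libraries (3 counts in each library). The PGE2 mean of 1.27 CPM, with the third library at 0, was at least 19.2-fold higher than the mean of these vehicle limits, and at least 9.28-fold higher without PGE2 replicate 2. Csf3 did not enter the test, because only 2 libraries reached 10 counts. With no filter its edgeR adjusted p was 0.0567, and the third PGE2 library, at 0, stood with the vehicle libraries. Csf2, which encodes GM-CSF (chromosome 11, 54247270 to 54249899), had 3 counts in vehicle replicate 3 and 0 in the other 5 libraries. No difference in Csf2 could be seen at this depth. The GM-CSF gene's neighbour Il3, together with Il5, Il34 (the other ligand of Csf1r) and Thpo, had 0 counts in every library.

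Genes whose profile over the 6 libraries was nearest to each receptor or ligand gene were found by the root mean square difference of centred log2 CPM, among 10331 tested genes that averaged 100 counts or more and had a settled name. The measure is a description and has no test. Nearest to Csf3r were Lsp1, a leukocyte actin-binding protein gene (0.0363), and Rgs14, a regulator of G protein signalling (0.0442). Aldh4a1 (0.0347) and Crlf3 (0.0391) were nearest to Csf2ra, and Plxna1 (0.071) and Glrx (0.0736) to Csf1r. For Csf2rb they were Ppp1cb (0.0388) and the cathepsin gene Ctsb (0.0424), and for Csf2rb2 Vps45 (0.0406) and Memo1 (0.0461). Il3ra was closest to Babam1 (0.0198) and Pdia6 (0.0223), while Csf1 had no neighbour as close, with Marcksl1 at 0.103 and Slc6a19 at 0.115.

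The kinases, STAT factors and adaptors that carry signals from these receptors were mostly lower with PGE2. Of 22 tested, 15 fell, 1 rose and 6 did not pass, against 14.3% lower and 10.1% higher over all tested genes, and their median log2 fold change was -0.43. With libraries scaled by their totals alone 12 fell, where 1751 of all 15947 tested genes did. With the replicate block 18 fell, beside 18.9% of all tested genes. Jak2, the kinase bound to the beta chain and to the G-CSF receptor, went from 168.5 ± 6.82 to 100.8 ± 7.95 CPM (-0.74 ± 0.09). Jak1 went from 846 ± 25.4 to 495 ± 11.4 CPM and the Src family kinase gene Fgr from 629.6 ± 43.9 to 315.5 ± 34.8 CPM. Gab2, an adaptor of cytokine receptors, rose from 73.8 ± 7.32 to 110.3 ± 8.83 CPM. By edgeR their adjusted p ran from 0.000524 (Jak1) to 0.00519 (Gab2).

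Genes that restrain receptor signalling moved both ways: of 13 tested, 4 rose, 5 fell and 4 did not pass, against 10.1% higher and 14.3% lower over all tested genes. Their median was 0.31, and -0.02 on log2(TPM + 1). Socs3, which blocks the G-CSF receptor, rose from 26.4 ± 2.01 to 81.7 ± 29.7 CPM (1.63 ± 0.24), and the adaptor gene Dok2 rose by 0.67 ± 0.12. Ptpn6, which encodes the phosphatase SHP-1, went from 1085 ± 104 to 505.5 ± 32.4 CPM. Cbl, a ubiquitin ligase gene that sends activated receptors for breakdown, went from 681 ± 88.1 to 338 ± 39.2 CPM, and Sh2b3, a JAK2-binding inhibitor gene, from 202 ± 2.07 to 129 ± 5.98 CPM. By edgeR their adjusted p ran from 0.000413 (Ptpn6) to 0.00523 (Dok2).

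Of 14 genes known to respond to growth factor signalling, 8 rose, 0 fell and 6 did not pass, against the same 10.1% and 14.3%, and the median was 0.48. Without PGE2 replicate 2, 5 rose. With the replicate block 8 rose and 3 fell, beside 16.6% and 18.9% of all tested genes. At an unadjusted p under the same threshold 1 of the 14 was lower, and DESeq2 called 0 lower. Pim2, a survival kinase gene, rose from 19.5 ± 1.93 to 34.0 ± 1.08 CPM and Junb from 239.5 ± 29.7 to 434 ± 67.7 CPM. Egr1, an immediate early gene, rose by 1.72 ± 0.30, and Osm, a cytokine gene, by 2.15 ± 0.12 on the log2 scale. Of 13 transcription factor genes known to act on receptor genes of this kind, 2 rose, 4 fell and 7 did not pass, beside 10.1% and 14.3% over all tested genes, while 2 fell without vehicle replicate 2. Their median was 0.06, and -0.04 on log2(TPM + 1). Cebpa, a C/EBP gene needed for Csf3r expression in progenitors, went from 110.2 ± 5.10 to 53.6 ± 3.09 CPM, and Cebpe from 81.4 ± 9.65 to 47.5 ± 9.72 CPM. Cebpb rose from 103 ± 19.2 to 320 ± 64.1 CPM and Ets2 from 118 ± 11.9 to 340 ± 61.1 CPM. For these 8 named genes the adjusted p by edgeR was between 9.58e-05 (Osm) and 0.0101 (Cebpe).

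Receptors and ligands of related cytokines were measured through 16 genes, of which 11 passed the filter. Of these 1 rose and 2 fell, near the 10.1% and 14.3% of all tested genes, and the median was 0.04 (-0.16 on log2(TPM + 1)). The IL-6 receptor gene Il6ra went from 164 ± 5.92 to 59.8 ± 5.91 CPM and its signalling chain gene Il6st from 29.1 ± 2.88 to 19.5 ± 1.28 CPM. Il4ra, at 126 ± 19.8 and 100.9 ± 15.2 CPM, did not pass (edgeR adjusted p = 0.155) but fell with the replicate block (edgeR adjusted p = 0.0319). Epor, the erythropoietin receptor gene, rose from 1.42 ± 0.631 to 4.46 ± 2.14 CPM (edgeR adjusted p = 0.0306), and it did not pass when either of the first PGE2 or vehicle libraries, or either of the second, was left out. Red cell RNA was measured through 4 hemoglobin genes, which took 0.413, 1.86 and 1.11% of the counts in vehicle and 1.57, 4.87 and 2.51% in PGE2. Those groups overlapped, but within each same-numbered pair the PGE2 library was the higher. The part of red cells in the Epor difference was not tested. Il5ra, which pairs with Csf2rb in the IL-5 receptor, stood at 1.43 ± 0.460 and 2.03 ± 0.578 CPM and did not pass (edgeR adjusted p = 0.331).

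**Figure D4:**
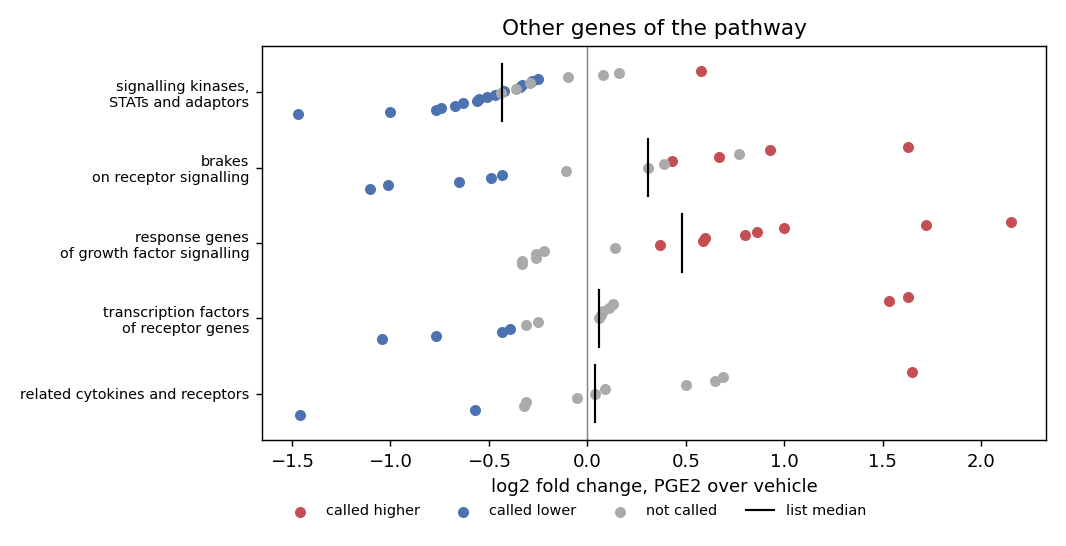
Log2 fold change of PGE2 over vehicle for each tested gene of 5 lists, 1 point per gene, red where called higher, blue where called lower and grey where not called, with a black line at the list's median. Most signalling kinases, STATs and adaptors lie left of 0 (15 of 22 called lower), and the response genes that were called all lie right of 0 (8 of 14).

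The libraries held 42091346 to 56238941 counts. Neutrophil markers were abundant in all of them, with S100a9 at 33801.5 to 49147.7 CPM and S100a8 at 15402.6 to 21410.3 CPM. Of 12 neutrophil markers 7 fell by edgeR and by DESeq2, 8 were lower at an unadjusted p and 9 fell with the replicate block, while 0 were called higher in any of these; without PGE2 replicate 2 or 3, 4 fell. The median log2 fold change of the 12 was -0.75, while Csf3r was at -0.93. Among those that fell were Ly6g, Mmp9 and Cd177. The summed level of the list, most of which is S100a9 and S100a8, neither of which passed, ran from 82730 to 86978 CPM in vehicle and from 73870 to 88873 CPM in PGE2. Eosinophil markers, of which 6 of 9 fell (2 without PGE2 replicate 2 or 3, and 4 without vehicle replicate 2), summed to 154 to 311 CPM in vehicle and 72.8 to 119 CPM in PGE2, with Prg2 the most abundant. B lineage markers, of which 4 of 8 rose (2 without vehicle replicate 1 or 2), summed to 409.0 to 557.9 CPM in vehicle and 620.4 to 905.3 CPM in PGE2, with Cd79a the most abundant. Of the markers of dendritic and progenitor cells 2 of 8 fell in each list. Progenitor markers summed to 587.5 to 807.3 CPM in vehicle and 424.7 to 535.6 CPM in PGE2, while the dendritic sums of the groups overlapped. Stromal markers summed to 35.4 to 41.9 CPM in vehicle and 45.9 to 46.9 CPM in PGE2. In the edgeR test 0 markers passed among those of T and NK cells (8 tested), red cells (7), stromal cells (5) and megakaryocytes (6). At an unadjusted p these last 4 lists had 0, 4, 2 and 1 markers higher and 0, 0, 1 and 0 lower, and DESeq2 called 0. With the replicate block 7 of the 7 red cell markers, 7 of the 8 B lineage markers and 3 of T and NK cells rose. So did 1 each of the dendritic, stromal and megakaryocyte lists, while 6 eosinophil, 3 dendritic and 3 progenitor markers fell. Over all tested genes 10.1% were higher and 14.3% lower, or 16.6% and 18.9% with the block. The part of these cells in the changes of the receptor genes was not tested.

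**Figure D5:**
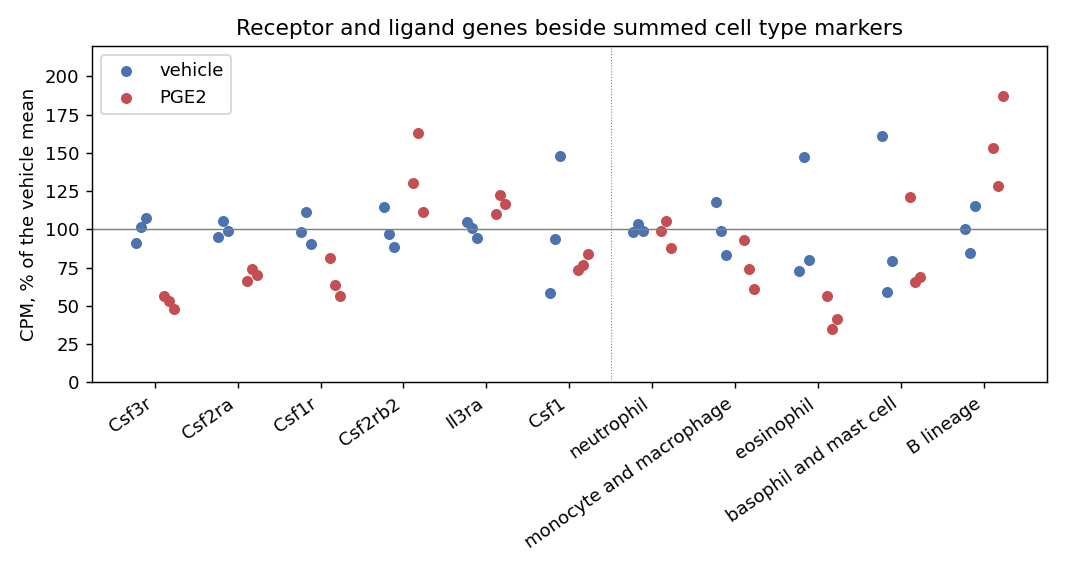
CPM of 6 receptor and ligand genes and summed CPM of 5 marker lists in each library, as a percentage of the mean of the vehicle libraries, blue for vehicle and red for PGE2. Csf3r (47.7 to 56.3%) and Csf2ra (66.3 to 73.9%) lie below all vehicle libraries in PGE2. The summed neutrophil markers, carried mostly by S100a9 and S100a8, range from 87.7 to 105.5% in PGE2, though 7 of these 12 markers were called lower. The monocyte and macrophage sum overlaps between groups. The sums of the other marker lists, red cells and progenitors among them, are not drawn.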

How the data were processed

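The authors deposited estimated counts and TPM per gene for 6 libraries, 3 per group. The tools named, per the submitters' processing notes, are RSEM, STAR, Bowtie2, DESeq2 and StringTie 2.1.3b, on mm10, with no roles given. The table's name calls its counts normalized, but they are whole numbers with unequal library totals and were taken as not normalized; which it is, the sources used here do not state. The deposited counts sum to 42091346 to 56238941 per library. The deposited TPM values, the authors' own, were used for levels between genes. A further 18 columns of other libraries in the series table were not used. Per the labels' protocols, the kit is named both as a standard and as a stranded mRNA kit.

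Expected counts, whole as deposited, were tested with edgeR 4.0.16 in R 4.3.3 (TMM, quasi-likelihood, two-sided, genes reaching 10 counts in 3 or more libraries), adjusted over 15947 genes at 0.05. Alternatives were a replicate block, each library left out, other scalings and filters, DESeq2 1.42.0, and limma 3.58.1 on log2(TPM + 1) and log2(TPM + 0.1) over 12621 genes. Same-numbered libraries deviated together from their group means (correlations 0.258, 0.174 and 0.187, against -0.166 to 0.0019 for unlike numbers). The numbers were thus taken to pair libraries in the block fits, from the data and not from the labels. The main test and the permutation tests of ratios did not use this pairing. On simulated data for 15487 genes, with 200 genes changed before the filter, edgeR found 10.1% of 1.5-fold, 52.6% of 2-fold and 84.7% of 4-fold changes. Of its calls there, 7.37% were false. The changed genes were a far smaller share than the 24.4% called in the data, so these rates need not hold for the data.

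The 9 genes and the gene lists were chosen with earlier results of these data known. All 9 genes were described, with the 4 genes of smallest adjusted p of each pathway list, up to 2 that passed the other way, the 2 most abundant markers of each cell type described with single genes, and the 2 nearest profiles. Other genes named (Il5ra, Ly6g, Mmp9, Cd177, Adgre1, Mertk, C1qa, C1qb, Marco, Tpsb2 and the ligands at 0) were chosen after their values were seen. Some genes that the rule picks are not reported here. Wilson intervals and floors cover counting error only, and the intervals of fold changes come from the spread between libraries.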

Additional observations from a re-analysis of the deposited data

How the results depend on the processing

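Csf3r and Csf2ra kept their direction and passed in all 16 analyses, and Csf1r kept its direction in all and passed in 12. With the replicate block 1 of the 9 genes was higher, Csf2rb2, as with library totals alone, and 0 to 1 was higher when each library was left out. Over all genes 1618 were higher, against 2648 with the replicate block, 967 on log2(TPM + 1), 953 on log2(TPM + 0.1) and 1005 to 1541 when each library was left out. The block changed no other call among the 9 genes. Pairing on TPM, added after seeing the data, left 1801 genes higher and Csf2rb2 not called. Csf2rb changed sign to -0.10 on TPM, with both pseudocounts and with the block, and ran from -0.09 (without PGE2 replicate 2) to 0.15 when each library was left out. Csf1 ran from -0.62 to 0.04, the last without vehicle replicate 3. The cause of these shifts was not tested. Library totals alone moved the median log2 fold change of all genes from 0.04 to 0.13 and TPM moved it to -0.06, and the higher share of calls was 41.5%, 55.5% and 30%. Relative to that median Csf3r was at -0.97, -0.97 and -0.96. Depth limits Csf2, which was too low to test, while Csf3 was not tested because too few libraries reached 10 counts. Having 3 libraries per group limits the ratios, whose exact permutation p cannot go below 0.1.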
